A study of Mus musculus with 4 samples.

Results

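The genes described here are 32 members of the p53 pathway, chosen by symbol from a list made with earlier results of these data known. The list holds the p53 family genes Trp53 and Trp73, regulators that restrain p53, and genes that p53 is known to switch on. All 32 were among the 24411 genes of the deposited files, and 31 passed the filter on low counts. Trp73 did not. They were read in mouse morulae, the stage of a compact ball of cells before the blastocyst cavity forms. Embryos of ICR, an outbred mouse stock, came from in vitro fertilization. Each was electroporated at 3 hours post insemination (hpi) with a control siRNA (siControl) or an siRNA against Pwp1 (siPwp1), and all embryos then grew in KSOM, an embryo culture medium, with added bovine serum albumin until 72 hpi. Each of the 4 libraries, 2 per group, holds polyadenylated RNA pooled from 10 whole embryos, so differences between single embryos cannot be seen.

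The transcription factor p53 is held low in unstressed cells by the ubiquitin ligase MDM2 and its partner MDM4. DNA damage, or a fault in ribosome production that frees ribosomal proteins to bind MDM2, lets p53 accumulate. It then switches on genes that halt the cell cycle, trigger cell death, repair DNA or adjust metabolism, and also Mdm2 and other genes that restrain p53 itself. Because p53 is controlled largely at the level of the protein, its targets are the usual transcript readout of its activity. The protein made from Pwp1 has WD repeats and is linked to ribosomal RNA synthesis and to chromatin.

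A sequence feature looked for in the promoters of these genes is the p53 half-site, the 10-base consensus to which each pair of p53 monomers binds. RefSeq promoter windows on GRCm38.p6, reaching from 250 bases before to 50 bases after a start site, were found for 25 of the 32 genes. An exact match to the consensus, which reads the same on both strands, lay in the windows of 12 of these 25 genes (48.0%). Among all 27025 genes with a window the share was 9.55%, and among the 10314 tested genes with one it was 8.38%. Since the list was drawn largely from known p53 targets, the higher share is not independent of that choice and describes the list only. The windows below are from members whose match lies before the start site and outside annotated exons, with 20 bases on each side where the window allows. They are shown because they cover the restraint, arrest, death and repair genes whose values follow, and capitals mark the match.
Mdm2 (chr10:117710915-117710964, minus strand): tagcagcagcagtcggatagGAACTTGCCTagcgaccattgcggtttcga
Ppm1d (chr11:85311102-85311151, plus strand): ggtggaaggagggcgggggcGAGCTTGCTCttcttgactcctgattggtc
Ccng1 (chr11:40755442-40755491, minus strand): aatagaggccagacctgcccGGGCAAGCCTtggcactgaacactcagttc
Cdkn1a (chr17:29090886-29090957, plus strand): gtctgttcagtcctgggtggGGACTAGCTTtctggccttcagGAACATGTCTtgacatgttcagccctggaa
Bax (chr7:45467070-45467119, minus strand): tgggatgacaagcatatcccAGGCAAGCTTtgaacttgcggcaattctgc
Sesn1 (chr10:41887246-41887295, plus strand): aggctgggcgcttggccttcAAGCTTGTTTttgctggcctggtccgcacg
Polk (chr13:96519389-96519437, minus strand): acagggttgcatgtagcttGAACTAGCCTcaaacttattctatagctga
Trp53 (chr11:69580264-69580313, plus strand): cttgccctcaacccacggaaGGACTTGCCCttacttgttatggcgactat

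Cdkn1a held a pair of matches, beginning at positions -73 and -51 from its start site, and each of the other genes shown held a single match. The first base of the match stood at position -186 from the start site in Mdm2, -201 in Bax and -75 in Trp53. Aen, Ei24, Gadd45a and Gtse1 also held a match, at or after the start site or over annotated exons. The 13 genes with a window and no match were Apaf1, Bbc3, Btg2, Dram1, Eda2r, Fas, Gdf15, Mdm4, Phlda3, Plk2, Plk3, Sesn2 and Trp73. A match is a string of letters and not a measured binding site, and its lack says nothing of sites elsewhere in the gene.

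**Figure D1:**
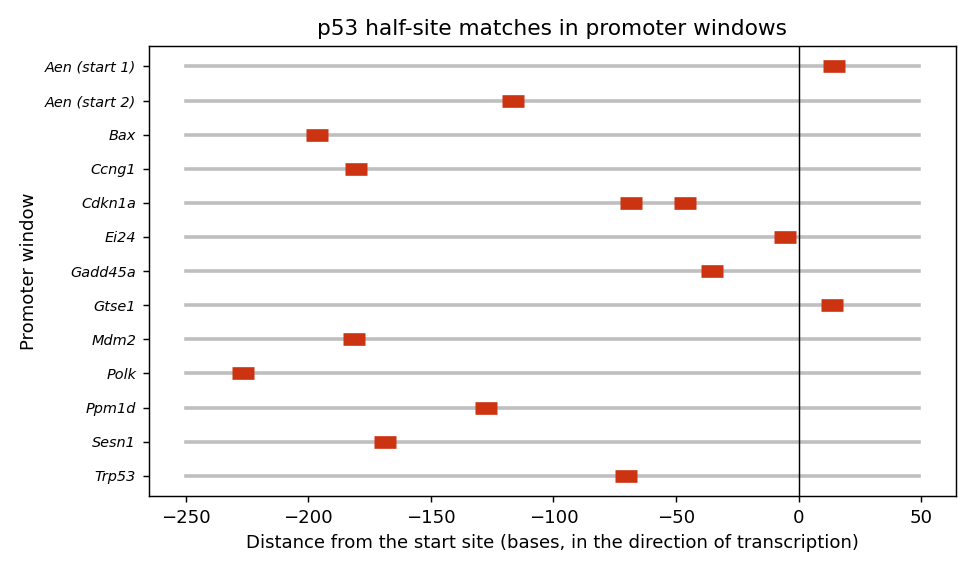
Position of each exact p53 half-site match (red) in the 13 promoter windows of p53 pathway genes that hold one, along the window (grey) in bases from the start site (0, black line). Aen has a window for each of 2 start sites, and the Cdkn1a window alone holds 2 matches, at -73 and -51.

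Before the members, the target and the libraries were checked. Pwp1 stood at 215.4 and 364.9 CPM (counts per 1000000 counts of the library, with TMM scaling) in replicates 1 and 2 of siControl, against 36.9 and 37.2 CPM in siPwp1, a log2 fold change of -2.97 (SE 0.333; edgeR adjusted p = 0.22 over all genes, DESeq2 adjusted p = 1.47e-12). Expected counts summed to between 28981358 and 48765229 per library. All 9 morula markers were detected, and 7 of the 9 had log2 fold changes below 0, with a median of -0.59 and a range of -3.07 to 0.04. Thus 22.2% of the 9 lay above 0, beside 49.9% of all genes. Nanog, at 422.4 and 291.0 CPM (siControl) against 197.9 and 273.1 CPM (siPwp1), and Pou5f1, at 79.2 and 57.7 CPM against 56.5 and 54.5 CPM, had separate groups on the lower side, and edgeR called neither. Separate groups on the lower side were thus 22.2% of the 9, beside 14.1% of all genes. Krt8 was higher in replicate 1 of both groups, at 192.7 and 15.6 CPM (siControl) against 116.4 and 21.3 CPM (siPwp1). Cdx2, Gata3 and Sox2 had the same order, Tead4 had the opposite order, and Tfap2c was at 82.3 and 81.4 CPM against 76.3 and 90.7 CPM. The part of these marker differences in the p53 pathway values was not tested. Of 10 cumulus and granulosa cell markers, 4 had no count in any library and the list summed to 0.631 to 2.33 CPM. The 8 sperm and testis markers summed to at most 1.56 CPM. Since the labels leave out whether replicates came from separate cultures, the p-values cover the spread between these libraries and no more, which may be technical.

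In siControl morulae the pathway was already transcribed. Levels are compared between genes in TPM, the authors' transcripts per 1000000 transcripts, which allow for gene length. The death effector gene Bax led with 139.7 ± 0.997 TPM (SD, n = 2), followed by the cell cycle inhibitor gene Cdkn1a at 81.95 ± 31.8 TPM and the cyclin gene Ccng1 at 67.3 ± 3.42 TPM. The Bax libraries lay above both Cdkn1a libraries, while the ranges of Cdkn1a and Ccng1 overlapped. Ei24 stood at 54.5 ± 10.9 TPM, Trp53 at 46.1 ± 6.28 TPM, Perp at 40.1 ± 4.19 TPM and Mdm2 at 27.7 ± 2.16 TPM. In all, 4 members had a mean above 50 TPM, 7 lay between 10 and 50 TPM, 17 between 1 and 10 TPM and 4 under 1 TPM. The 4 lowest were Bbc3 at 0.91 ± 0.0707, Fas at 0.515 ± 0.332, Gdf15 at 0.36 ± 0.0141 and Trp73 at 0.02 TPM in both libraries. Of the 31 neighbouring pairs in this order, 24 had overlapping siControl ranges, so most of the order is not resolved by 2 libraries.

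Levels in siPwp1 were then set against siControl, to see how the pathway's transcripts differ when Pwp1 is targeted. Over all 13585 genes tested, edgeR called 0 members higher and 0 lower at an adjusted p of 0.05, as it did for 0% of all genes in each direction. DESeq2 called Fas higher and no other member, where it called 0.309% of all genes higher and 0.0147% lower. At an unadjusted edgeR p under 0.05 there were 4 members higher and 0 lower: Fas, Plk2, Mdm2 and Phlda3. This is 12.9% of 31, beside 1.84% of all genes higher and 0.824% lower. Both siPwp1 libraries lay above both siControl libraries for 8 members (25.8%), beside 14.7% of all genes, and below for 0 members, beside 14.1%. In TPM the counts were 9 higher and 0 lower, beside 14.8% and 13.7% of all genes, with Ppm1d and Trp53inp1 gained and Tnfrsf10b lost. Leaving out 1 library makes this order easier to meet: the counts were then 11, 16, 17 and 15 higher and 5, 2, 8 and 4 lower without siControl replicates 1 and 2 and siPwp1 replicates 1 and 2. The shares of all genes were 31.3%, 36.1%, 33.7% and 28.9% higher and 29.6%, 36.6%, 33.1% and 27.4% lower. The median log2 fold change of the 31 members was 0.24, beside -0.0010 over all genes, and 22 members (71.0%) lay above 0, beside 49.9%. Without siControl replicate 1 the members' median was 0.12, and without siControl replicate 2 it was 0.45. With 2 libraries per group, an exact permutation test of a single gene cannot go below p = 0.333. In whole embryos, fewer cells that carry a transcript and less of it per cell cannot be told apart.

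**Figure D2:**
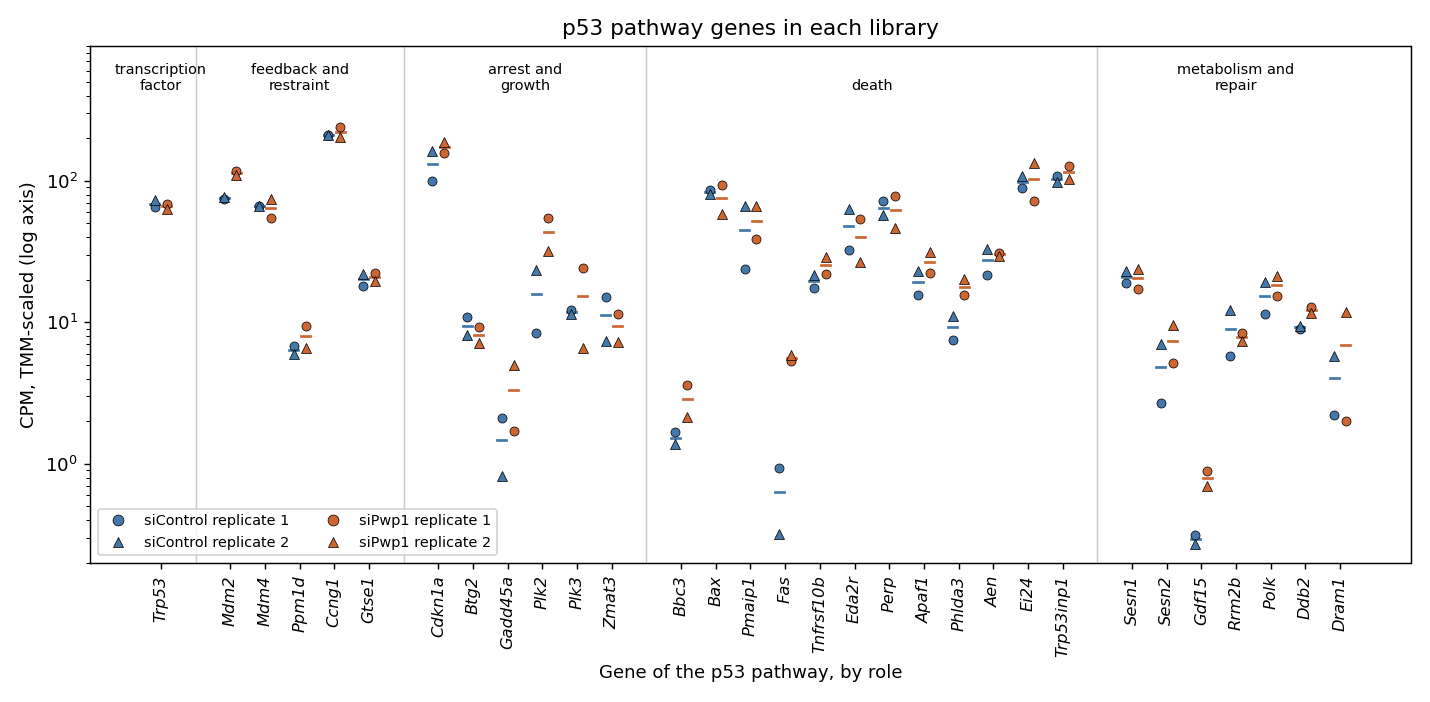
CPM on a log axis in each library for the 31 p53 pathway genes that passed the filter, by role. Blue is siControl, orange is siPwp1, circles are replicate 1, triangles are replicate 2 and bars are group means (n = 2). Fas, Mdm2 and Ddb2 show a clear gap between groups, while Dram1, Pmaip1 and Plk3 spread widely within a group.

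Trp53 itself did not differ beyond its spread. It stood at 65.1 and 72.9 CPM (siControl) against 69.1 and 63.4 CPM (siPwp1), with overlapping groups and a log2 fold change of -0.06 (SE 0.256). Its locus is the plus strand of chromosome 11, 69580359 to 69591873 (GRCm38), with up to 11 exons per transcript. Trp73, which encodes the related factor p73, was near absent, with expected counts of 3 and 4 in siControl and of 28 and 0 in siPwp1. The count of 0 allows up to 0.0996 CPM in siPwp1 replicate 2, and the 28 came from replicate 1 alone.

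Among the 5 genes that restrain p53, Mdm2 was higher in both siPwp1 libraries, and the other 4 overlapped between groups. Separate groups on the higher side were thus 1 of 5, beside 14.7% of all genes, and 0 on the lower, beside 14.1%. Mdm2 had a mean of 113.9 ± 6.25 CPM in siPwp1 against 75.8 ± 2.17 CPM in siControl (SD, n = 2). Mdm2, on chromosome 10 from 117688875 to 117710758 on the minus strand, encodes the ubiquitin ligase that marks p53 for degradation and is itself a p53 target. It stood at 74.3 and 77.3 CPM (siControl) against 118.4 and 109.5 CPM (siPwp1). The replicates within a group lay close together and the groups were well apart. The log2 fold change was 0.59 (SE 0.243), with an unadjusted p = 0.0469 and an adjusted p = 0.9998 by edgeR. Leaving out any 1 library kept the log2 fold change between 0.53 and 0.65. Mdm2 was one of 4 members, with Fas, Gdf15 and Ddb2, whose gap between groups on the log2 scale was wider than the range within either group, where 3.72% of all genes met this on the higher side and 3.42% on the lower, the latter with 0 members.

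Mdm4, which encodes a p53 inhibitor related to MDM2, stood at 67.0 and 66.5 CPM (siControl) against 54.8 and 74.5 CPM (siPwp1). The siPwp1 libraries thus lay on both sides of siControl. Ppm1d, a phosphatase gene that switches off damage signalling, was at 6.77 and 5.94 CPM and then at 9.36 and 6.61 CPM, a log2 fold change of 0.33 (SE 0.424). These groups overlapped in CPM but not in TPM, where Ppm1d read 2.53 and 2.39 in siControl against 3.60 and 2.64 in siPwp1. Ccng1, which recruits a phosphatase to MDM2, and Gtse1, which restrains p53 in the second gap phase of the cell cycle, each had a log2 fold change of 0.06. Ccng1 was the most abundant member in CPM, at 212.3 ± 0.555 in siControl and 222.0 ± 27.1 in siPwp1 (SD, n = 2).

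In the 6 genes of arrest and growth control, Plk2 was the member with separate groups, and the other 5 overlapped. This is 16.7% on the higher side, close to the 14.7% of all genes. Plk2 encodes a polo-like kinase known for slowing the cell cycle after stress and lies on chromosome 13 from 110395046 to 110400844. It stood at 8.47 and 23.5 CPM (siControl) against 54.6 and 32.1 CPM (siPwp1). Replicates lay far apart within each group, but both siPwp1 libraries were above both siControl libraries. The log2 fold change was 1.44 (SE 0.536; edgeR unadjusted p = 0.032, adjusted p = 0.9998, DESeq2 adjusted p = 0.602). Leaving out siControl replicate 2 gave 2.36, and leaving out siControl replicate 1 gave 0.89.

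Cdkn1a, which encodes the cell cycle inhibitor p21 and is the best known p53 target, stood at 99.9 and 162.4 CPM (siControl) against 157.2 and 188.8 CPM (siPwp1). The upper siControl library exceeded the lower siPwp1 library, and the log2 fold change of 0.40 (SE 0.308) did not pass. Leaving out the first siControl library gave 0.09, and leaving out the other gave 0.79. Of its exons, 273 bases overlap a gene on the other strand, so its level is uncertain if strand was not kept. Gadd45a, a stress gene of arrest and repair, stood at 2.12 and 0.819 CPM and then at 1.70 and 4.98 CPM. Its log2 fold change of 1.19 (SE 0.81) was 0.23 without siPwp1 replicate 2 and 2.02 without siControl replicate 1. Its exons overlap an opposite-strand gene over 337 bases.

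Plk3, a related polo-like kinase gene, went apart within siPwp1, at 24.3 and 6.54 CPM, against 12.1 and 11.5 CPM in siControl. The antiproliferative gene Btg2 and the RNA-binding protein gene Zmat3 had log2 fold changes of -0.21 and -0.26. Both were higher in replicate 1 than in replicate 2 of each group.

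The 12 death genes held the widest difference of the list. Of the 12, 4 had separate groups on the higher side (33.3%), beside 14.7% of all genes, and 0 on the lower, beside 14.1%. Fas, which encodes a death receptor of the tumour necrosis factor receptor family, occupies 34290666 to 34327772 of chromosome 19, plus strand, with up to 10 exons per transcript. It stood at 0.937 and 0.319 CPM (siControl) against 5.32 and 5.85 CPM (siPwp1), from expected counts of 27, 14, 269 and 176. Both siPwp1 libraries were thus above both siControl libraries, and the group means differed 8.90-fold. The log2 fold change was 3.17 (SE 0.715), with an unadjusted p = 0.00321 and an adjusted p = 0.9998 by edgeR and an adjusted p = 0.0115 by DESeq2. Leaving out single libraries moved the log2 fold change between 2.57 and 4.12, with edgeR adjusted p from 0.0959 to 0.397. In TPM it stood at 0.75 and 0.28 in siControl and at 4.41 and 5.04 in siPwp1.

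Fas is known from lymphoid cells, so blood and immune markers are given beside it. The 10 markers summed to 58.5 and 90.3 CPM in siControl and to 107.6 and 109.7 CPM in siPwp1. Most of this was Cd74, at 46.2, 55.5, 63.7 and 64.8 CPM, and Hba-a2, at 11.3, 31.7, 39.3 and 39.1 CPM, in the same order. Cd52 was at 0.521 and 0.432 CPM and then at 2.77 and 1.59 CPM. The pan-leukocyte gene Ptprc was at 0.243 and 0 CPM (siControl) against 0 and 0.332 CPM (siPwp1), and Hbb-bt, Hbb-bs and Tyrobp had no count in any library. Of the 5 markers that passed the filter, all 5 had log2 fold changes above 0, beside 49.9% of all genes, and 3 had separate groups on the higher side, beside 14.7%. Whether any blood or immune cells were present, and had a part in the Fas level, was not tested.

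Of the other death receptors, Tnfrsf10b, which encodes the mouse receptor for the ligand TRAIL, stood at 17.4 and 21.8 CPM (siControl) against 22.1 and 28.8 CPM (siPwp1). The groups lay apart by a narrow gap that was absent in TPM. Eda2r, a receptor gene of the same family, stood at 32.7 and 63.7 CPM and then at 53.4 and 26.7 CPM, with opposite orders of the replicates in the 2 groups. The log2 fold changes of the 3 receptor genes were thus 3.17 for Fas, 0.38 for Tnfrsf10b and -0.27 for Eda2r.

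Of the mitochondrial death route, Bbc3 had separate groups while Bax, Pmaip1 and Apaf1 overlapped. Over all genes, 14.7% had separate groups on the higher side and 14.1% on the lower. Bbc3, which encodes the BH3-only protein PUMA, stood at 1.67 and 1.39 CPM (siControl) against 3.58 and 2.16 CPM (siPwp1), with separate groups and a log2 fold change of 0.91 (SE 0.642). Bax, which encodes the pore-forming protein downstream of PUMA, stood at 86.2 and 80.2 CPM and then at 94.1 and 58.1 CPM, with overlapping groups and a log2 fold change of -0.13 (SE 0.31). Pmaip1, the gene of the BH3-only protein NOXA, followed the replicate number, at 23.7 and 66.7 CPM (siControl) against 38.6 and 66.3 CPM (siPwp1). Apaf1, which encodes the scaffold of the apoptosome, had a log2 fold change of 0.47 (SE 0.369) with overlapping groups.

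Phlda3, which encodes a repressor of the survival kinase AKT, lies on chromosome 1 from 135766119 to 135769136. It stood at 7.46 and 11.1 CPM (siControl) against 15.6 and 20.2 CPM (siPwp1), 1.93-fold higher by group means. Replicate 2 exceeded replicate 1 in both groups, and the groups did not overlap. Its log2 fold change was 0.95 (SE 0.395; edgeR unadjusted p = 0.0479, adjusted p = 0.9998) and stayed between 0.69 and 1.26 when any 1 library was left out.

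The remaining death genes overlapped between groups in CPM. In TPM Trp53inp1 did not, at 20.64 and 20.16 in siControl against 24.98 and 21.23 in siPwp1. The nuclease gene Aen, the autophagy gene Ei24 and Trp53inp1, whose product assists p53 in the nucleus, had log2 fold changes of 0.14, 0.06 and 0.16. Exons of Ei24 overlap an opposite-strand gene over 324 bases, and those of Bax a same-strand gene over 192 bases, which leaves their levels uncertain. Perp, a membrane protein gene that also serves cell adhesion, had -0.05. Perp was at 71.8 and 57.3 CPM (siControl) against 78.2 and 46.2 CPM (siPwp1), so that replicate 1 was the higher one in each group.

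**Figure D3:**
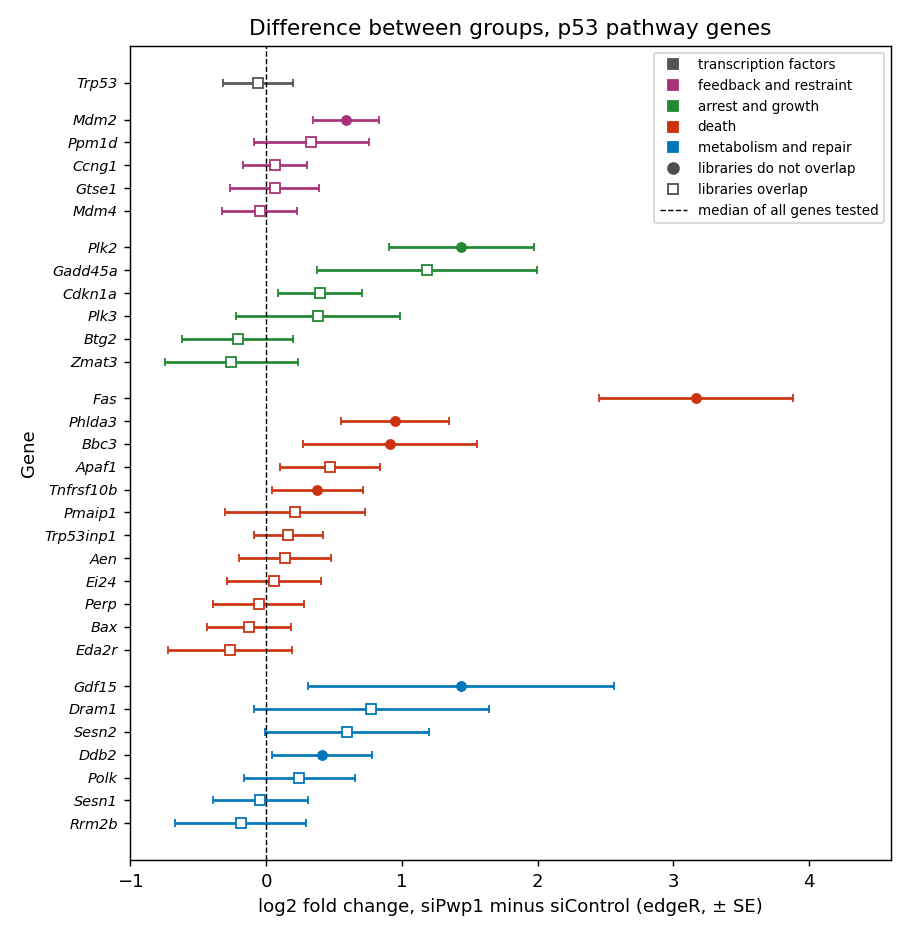
Log2 fold change, siPwp1 minus siControl, with its SE (edgeR, 2 libraries per group) for the 31 p53 pathway genes tested, ordered within each role. Filled circles are the 8 genes whose libraries do not overlap between groups, open squares the 23 that overlap, and the dashed line is the median of all genes tested (-0.0010). Fas stands at 3.17, and no gene lies below -0.27.

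Among the 7 genes of metabolism and repair, Ddb2 and Gdf15 had separate groups at modest or low levels. Both were on the higher side, which is 28.6% of the 7, beside 14.7% of all genes. Ddb2, a damage recognition gene of nucleotide excision repair, stood at 9.02 and 9.44 CPM (siControl) against 12.8 and 11.7 CPM (siPwp1). The replicates lay close together, with a log2 fold change of 0.41 (SE 0.367; edgeR unadjusted p = 0.299). Ddb2 was the only member whose expected counts were not whole numbers, and 652 of its exonic bases overlap Acp2 on the other strand, so its level is uncertain. Gdf15, a secreted stress cytokine gene, stood at 0.312 and 0.273 CPM and then at 0.891 and 0.697 CPM, from expected counts of 9, 12, 45 and 21. Its log2 fold change of 1.43 had an SE of 1.13, so the separation rests on few reads.

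Sesn2, an inhibitor gene of the growth kinase mTORC1, stood at 2.67 and 7.03 CPM (siControl) against 5.15 and 9.56 CPM (siPwp1). Replicate 2 was above replicate 1 in both groups and the groups overlapped. The autophagy gene Dram1 had the same order with a wider spread, at 2.22 and 5.82 CPM and then at 2.02 and 11.9 CPM. Sesn1, the related gene, had a log2 fold change of -0.04, the ribonucleotide reductase gene Rrm2b -0.19 and the translesion polymerase gene Polk 0.24. Exons of Rrm2b overlap an opposite-strand gene over 734 bases.

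Many members differed as much between replicates as between groups. The median absolute difference between the replicates was 0.32 on the log2 scale in siControl and 0.48 in siPwp1, and the median absolute log2 fold change between groups was 0.27. Over all genes these were 0.55, 0.46 and 0.30. A replicate difference compares single libraries, while the log2 fold change is fitted between groups of 2, so these measures are not alike. Replicate 2 exceeded replicate 1 in both groups for 10 members, among them Pmaip1, Sesn2 and Dram1, and lay below it in both groups for 10, among them Zmat3, Btg2 and Perp. Each is 32.3% of 31, close to the 32.8% and 33.9% of all genes. Sesn1, Sesn2, Polk and Dram1, 4 of the 7 metabolism and repair genes, were higher in replicate 2 of both groups.

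**Figure D4:**
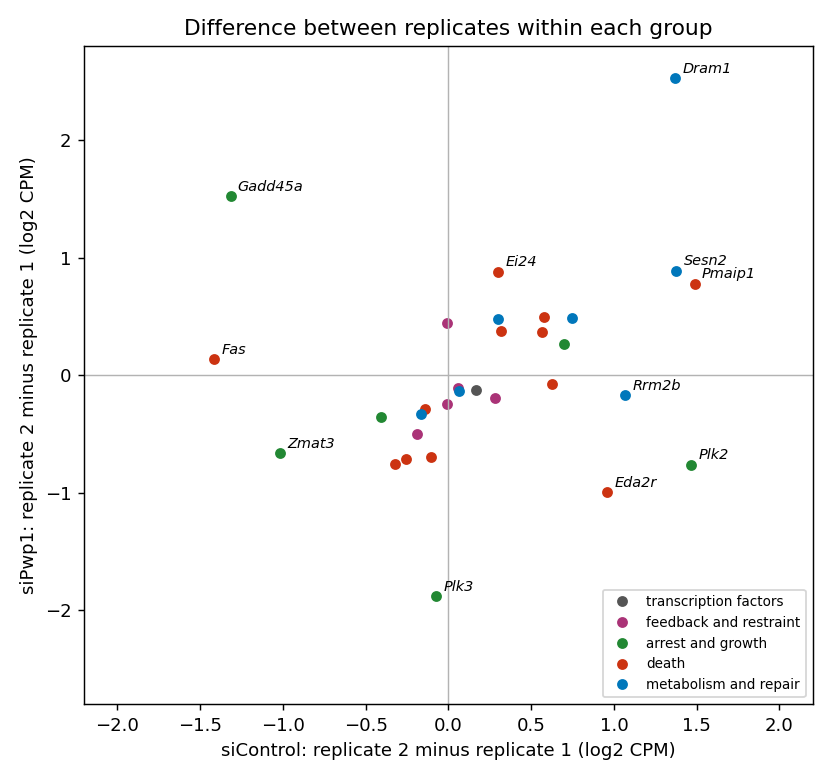
Difference of replicate 2 minus replicate 1 in log2 CPM within siControl (horizontal axis) and within siPwp1 (vertical axis) for the 31 p53 pathway genes tested, coloured by role, with the widest named. Of the genes, 10 lie in the upper right and 10 in the lower left quadrant. Plk2 and Eda2r were higher in replicate 2 of siControl and in replicate 1 of siPwp1, and Gadd45a the reverse.

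Members with and without a promoter match were set side by side as a description. Of the 12 members with a match, 1 (Mdm2) had separate groups, 9 lay above 0 and the median log2 fold change was 0.10. Of the 12 tested members with a window and no match, 5 had separate groups, 9 lay above 0 and the median was 0.69. Of the 7 members without a window, 2 (Ddb2 and Tnfrsf10b) had separate groups, 4 lay above 0 and the median was 0.16. All of these separate groups were on the higher side, where 14.7% of all genes had them, and 49.9% of all genes lay above 0. The 5 were Bbc3, Fas, Gdf15, Phlda3 and Plk2, of which Bbc3, Fas and Gdf15 were under 1 TPM in siControl.

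Other genes of the pathway were taken from 6 further lists of 79 genes, of which 72 passed the filter. By edgeR, 0 of the 72 were called in either direction, with 2 higher and 0 lower at an unadjusted p under 0.05, and DESeq2 called 0. Separate groups were found for 10 higher (13.9%) and 5 lower (6.94%), beside 14.7% and 14.1% of all genes. The median log2 fold change was -0.0054, and 36 genes lay on each side of 0.

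The 2 genes at an unadjusted p under 0.05 were Bcl2l11 and Ercc5. Bcl2l11, which encodes the BH3-only death protein BIM, stood at 16.4 and 21.8 CPM (siControl) against 34.5 and 36.6 CPM (siPwp1) (log2 fold change 0.90, SE 0.319, edgeR unadjusted p = 0.0268). Ercc5, a nuclease gene of nucleotide excision repair, stood at 9.93 and 15.0 CPM and then at 19.2 and 40.9 CPM, with an edgeR log2 fold change of 1.27 (SE 0.463, unadjusted p = 0.03). In the list of other death genes, 4 of 9 had separate groups on the higher side and 0 on the lower, beside 14.7% and 14.1% of all genes. They were Bcl2l11, Triap1 (0.30), Siva1 (0.28) and the sparse gene Bik (1.43), with log2 fold changes in parentheses. Bik had expected counts of 8 and 8 in siControl against 31 and 19 in siPwp1. Its passing the filter, at a minimum count of 10, depended on the siPwp1 libraries, where it is high, so Bik adds no weight to the 4. In other metabolic and repair genes there were 5 of 20 higher and 0 lower, against the same shares, among them Sesn3 at 0.89, Abat at 1.09 and Cpt1c at 1.46.

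Of 10 damage kinases and sensors that act upstream of p53, 3 had separate groups on the lower side and 0 on the higher, beside 14.1% and 14.7% of all genes, though 6 of the 10 log2 fold changes lay above 0. The checkpoint kinase gene Chek1 stood at 138.5 and 168.4 CPM (siControl) against 99.9 and 119.2 CPM (siPwp1) (log2 fold change -0.49, SE 0.257, edgeR unadjusted p = 0.101). Rad50, of the double-strand break sensor complex, had a log2 fold change of -0.44 and the kinase gene Atr -0.30, while Trp53bp1 overlapped at 0.19. Atr stood at 20.1 and 21.1 CPM (siControl) against 13.6 and 19.8 CPM (siPwp1), a narrow gap. In TPM the Atr groups overlapped, at 2.53 and 2.86 in siControl against 1.77 and 2.66 in siPwp1. Among 15 cofactors and modifiers of p53, the acetyltransferase gene Crebbp had separate groups on the higher side (0.25) and Rfwd2, a ubiquitin ligase gene for p53, on the lower side (-0.37). Each is 6.67% of the 15, below the 14.7% and 14.1% of all genes. Ppp1r13b and Trp53bp2, both of the ASPP family of p53 partners, overlapped at 0.56 and -0.57.

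Genes that link ribosome production to MDM2 overlapped between groups for 8 of 8 members tested. Most genes overlap: 14.7% of all genes were separate on the higher side and 14.1% on the lower. Rpl5, whose protein binds MDM2 when ribosome assembly fails, stood at 3108 and 2238 CPM (siControl) against 2550 and 2208 CPM (siPwp1). Rpl23 had a log2 fold change of -0.22, and the nucleolar genes Gnl3 and Gltscr2 had 0.35 and 0.37. Of 10 tested arrest and senescence genes, Cdc25a, a phosphatase gene that drives the cycle, had separate groups on the lower side (-0.37), and Btg1, E2f7 and Ckap2 overlapped at 0.83, -0.63 and 0.29.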

How the data were processed

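For each of the 4 libraries the authors deposited expected counts per gene from RSEM, not normalized, and TPM scaled within the library, both per the file headers. Transcript lengths in the same files entered no test. The submitters' processing notes name STAR 2.7.10, RSEM 1.3.3 and mm10. No source used here gives the annotation release, trimming or strand setting.

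Expected counts were rounded, filtered with filterByExpr at a minimum count of 10 and scaled by TMM. The edgeR quasi-likelihood test (edgeR 4.0.16, R 4.3.3) then compared the groups with no other term. P-values are two-sided and Benjamini-Hochberg adjusted over 13585 genes, with a threshold of 0.05. The SE was taken as |log2 fold change| divided by the root of the F statistic. Separate groups means that both libraries of one group lie above both of the other. A count of 3, the most that a count of 0 allows, equals 0.0594 to 0.104 CPM, for counting error only. Alternatives used DESeq2 1.42.0 and limma 3.58.1.

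Members, lists and the naming rule were chosen with earlier results of these data known. The rule names Pwp1, all 32 members, up to 4 genes of smallest p from each further list, and markers. Gene positions and exon overlaps are from GENCODE M21 (GRCm38, of which mm10 is another name). Promoter windows come from RefSeq.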

Additional observations from a re-analysis of the deposited data

How the results depend on the processing

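The count of 0 members called higher by edgeR became 2 with no filter on low counts (Fas, adjusted p = 0.00794, and Plk2, adjusted p = 0.0459). In that setting 99 of 18613 genes were called higher and 7 lower. The count was 1 with the DESeq2 Wald test (Fas, adjusted p = 0.0115), where 0.309% of all genes were called higher and 0.0147% lower. Calls without 1 library, which leave a single library in 1 group, are not counted here. With the replicate number as a block the count was 1 (Fas, adjusted p = 0.0424), where 71 genes (0.523% of all genes) were called higher and 9 (0.0662%) lower. Deviations of same-numbered libraries correlated at 0.317 over 13585 genes, but with 2 pairs and no label for a shared batch the numbers do not establish a pairing. No setting tried called a member lower or any of the 72 other pathway genes. Leaving out 1 library gave 11 to 17 members with separate groups on the higher side and 2 to 8 on the lower. The order is then easier to meet, and the shares of all genes were 28.9% to 36.1% higher and 27.4% to 36.6% lower. The members' median log2 fold change was then 0.12 to 0.45. In TPM, 9 members were separate on the higher side, beside 14.8% of all genes. Pwp1 passed the edgeR threshold with no filter (adjusted p = 5.04e-16) and with the block (2.08e-04). Its log2 fold change lay between -3.30 and -2.54 when any 1 library was left out. The prior degrees of freedom set how far edgeR draws a gene's spread to that of all genes. They were 4.84 in the main fit, 10.3 with the block and infinite with no filter. At an infinite value a gene's own spread is not used, so calls with no filter do not show that a result is robust. The cause of these changes was not tested.

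Leaving out 1 library turned the direction of 17 members, none of which was called. Their log2 fold changes then ranged from -0.14 to 0.49 for Aen, -0.52 to 0.18 for Bax, -0.40 to 0.0065 for Btg2, -0.066 to 0.19 for Ccng1, -0.99 to 1.63 for Dram1 and -0.85 to 0.29 for Eda2r. The ranges were -0.44 to 0.43 for Ei24, -0.071 to 0.21 for Gtse1, -0.28 to 0.16 for Mdm4, -0.48 to 0.28 for Perp, -0.86 to 1.04 for Plk3 and -0.35 to 1.14 for Pmaip1. They were -0.083 to 0.66 for Polk, -0.63 to 0.45 for Rrm2b, -0.29 to 0.18 for Sesn1, -0.14 to 0.025 for Trp53 and -0.68 to 0.34 for Zmat3. The other 14 kept their direction under each library left out. Counts of separate groups under other settings were chosen after seeing the data. Depth limits the low genes: Fas had 14 counts and Gdf15 9 in their lowest libraries.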
